A study of Saccharomyces cerevisiae with 16 samples.

Results

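The lysine pathway of budding yeast was followed through 8 genes of the pathway, identified in the table by their systematic ORF names with no threshold on a measured value: LYS20 (YDL182W), LYS21 (YDL131W), LYS4 (YDR234W), LYS12 (YIL094C), LYS2 (YBR115C), LYS9 (YNR050C), LYS1 (YIR034C) and the regulator gene LYS14 (YDR034C). All 8 were found among the 6074 genes of the table, each as 1 entry, and all 8 had enough values to be tested among 5147 genes. The data are 16 arrays with spots for annotated ORFs, each hybridized with RNA of a mutant in one dye and RNA of a wild type in the other, 4 arrays for each of 4 mutants. The mutants are set1, named for SET1, the gene of the methyltransferase for histone H3 lysine 4; H3K4A, with alanine in place of that lysine; set1htz1, which is also mutated in the gene of the histone variant H2A.Z; and set1htz1sir2, which is mutated in addition in the gene of the silencing deacetylase Sir2. Mutant and wild-type cultures were paired, grown in rich YPD medium with added tryptophan and adenine, and taken at an OD600 of 0.7. The replicates are described as independent biological ones with dyes exchanged between them, and by the labels Cy5 carried the mutant on arrays 1 and 3 of each group, and Cy3 carried it on the other two. The sources used here give neither the strain background nor the auxotrophic markers of mutants and wild types, nor which stretch of an ORF a spot covers. The deposited description gives total RNA for H3K4A and mRNA for the other mutants, while the labels give polyA RNA for all.

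Fungi make lysine from 2-oxoglutarate through alpha-aminoadipate. Homocitrate synthase, encoded by the paralogs LYS20 and LYS21, starts the pathway and is inhibited by lysine; the homoaconitase gene LYS4 and the homoisocitrate dehydrogenase gene LYS12 follow, both of them mitochondrial enzymes. LYS2 encodes alpha-aminoadipate reductase, whose product alpha-aminoadipate semialdehyde is also the inducer that Lys14, a zinc cluster activator of the pathway genes, responds to, and the saccharopine-forming enzyme Lys9 and the lysine-forming enzyme Lys1 end the pathway. LYS2 is in addition one of the classic marker genes of laboratory strains, deleted or mutated in many of them and then sometimes restored.

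SET1, HTZ1 and SIR2 were low in the mutants named for them, wherever they had a value. The mean log2 ratio of SET1 lay between -2.67 and -2.31 in the set1, set1htz1 and set1htz1sir2 groups and at -0.14 in H3K4A. HTZ1 lay at -2.94 in set1htz1 and had no value in set1htz1sir2, and SIR2 lay at -2.44 in set1htz1sir2. The histone H3 genes were not low in H3K4A, where HHT1 lay at 0.02 and HHT2 at 1.455. Arrays had values for 5385 to 5802 entries, and array medians lay between -0.04 and 0.03. The dye orientation separated the arrays of set1: they correlated at 0.73 or more within a dye and at 0.09 or less across dyes, and those of H3K4A between 0.09 and 0.36 within a dye and between -0.28 and 0.61 across dyes. In what follows a value is a log2 ratio of mutant over wild type, a rise or fall is a call by limma with a Benjamini-Hochberg adjusted p under 0.05 over all genes tested, and an interval is limma's 95% interval.

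LYS2 set itself apart from the other 7 genes. In the set1htz1 double mutant its log2 ratio was 2.32, 2.52 and 3.32 on the 3 arrays with a value, and array 1 had none. All 3 lay above the highest LYS2 value of any other group, 0.74 on an array of set1htz1sir2. The fitted rise was 2.65 ± 0.17 (SE, n = 3 arrays, limma adjusted p = 2.2e-09), or 6.27-fold with an interval of 4.90 to 8.03. That was the largest rise of the 5147 genes tested in this mutant. The SE and the interval rest on a spread shared by all 16 arrays. The 3 arrays themselves had a mean of 2.72 ± 0.53 (SD). In set1, LYS2 had ratios of -0.23, 0.50, -0.06 and 0.69, with both positive values on the arrays that carried the mutant in Cy3. In set1htz1sir2 the ratios were -0.15, 0.26, 0.03 and 0.74, again with the higher pair in Cy3, and in H3K4A they were 0.12, -0.23, -0.44 and 0.09. The means of those 3 groups were 0.23 ± 0.44, 0.22 ± 0.39 and -0.12 ± 0.27 (SD, n = 4), and none was called.

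Which neighbours in that order differ was tested between mutants. LYS2 was 2.42 ± 0.22 higher in set1htz1 than in set1 (limma adjusted p = 1.3e-06), the largest difference in that direction of all genes tested. It was lower in set1htz1sir2 than in set1htz1 by -2.43 ± 0.22 (limma adjusted p = 8.1e-07), where 11 of the 5147 genes had a more negative difference. These comparisons share the set1htz1 arrays and are therefore not independent of each other. Between set1htz1sir2 and set1 the difference in LYS2 was -0.005, with an interval from -0.44 to 0.43. Between H3K4A and set1 it was -0.34, with an interval from -0.77 to 0.09 and no call. The ratio of the gene thus stood high in the double mutant and near 0 in the strain named as carrying the same mutations and sir2 besides. These are differences between ratios, each taken to a paired wild type. Whether the wild types of the groups share a LYS2 genotype is not given, so a difference in ratio need not be one between the mutants.

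**Figure D1:**
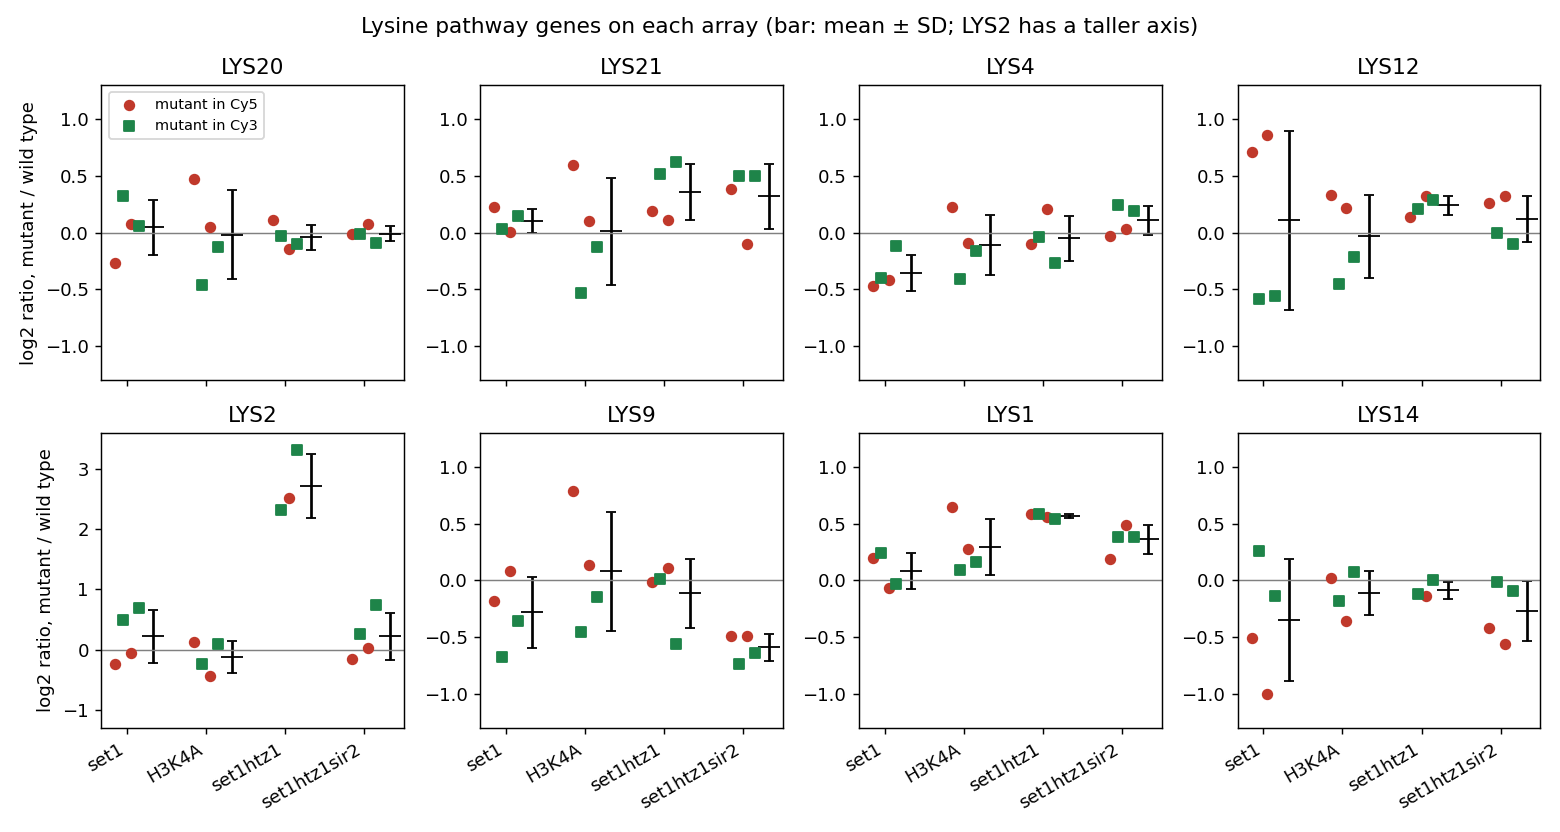
Log2 ratio of mutant over wild type of the 8 genes on each array by mutant group, red circles for arrays with the mutant in Cy5 and green squares for Cy3, with the group mean ± SD as a black bar. LYS2 reaches 2.32 to 3.32 in set1htz1, while every value of the other 7 genes lies between -1.0 and 0.86.

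Whether the rest of the pathway followed LYS2 was asked first in set1htz1. There 3 of 8 genes were called, LYS2, LYS1 and LYS21, all higher, against a background of 47.5% of all genes called (21.2% higher and 26.3% lower). Without LYS2 the median of the 7 others was -0.04, beside -0.04 over all genes tested, and 3 of the 7 lay above 0 and 4 below. With 2 of 7 called, both higher, the other genes were near that background, and the count says nothing particular about them.

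LYS1, the gene of the lysine-forming saccharopine dehydrogenase, was the next highest member. Its ratios in set1htz1 were 0.58, 0.58, 0.56 and 0.54, which is the tightest set of 4 values of any member in any group. They gave a rise of 0.57 ± 0.09 (SE, limma adjusted p = 7.6e-05), or 1.48-fold. In set1htz1sir2, where LYS2 was near wild type, LYS1 still measured 0.19, 0.38, 0.49 and 0.38 and was called as a rise of 0.36 ± 0.09 (limma adjusted p = 0.0033). In set1 the values 0.20, 0.24, -0.07 and -0.03 straddled 0, with no call. H3K4A gave 0.64, 0.09, 0.28 and 0.17, all above 0, and a fitted 0.29 with an interval from 0.10 to 0.49 and a limma adjusted p of 0.092. LYS1 was higher in set1htz1 than in set1 by 0.48 ± 0.13 (limma adjusted p = 0.015). Quantile normalization ended that call (adjusted p = 0.055), and it called LYS1 higher in H3K4A (0.42, adjusted p = 0.0070). From set1htz1 to set1htz1sir2 the fitted difference was -0.21, with an interval from -0.48 to 0.07 and no call.

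LYS21 and LYS20 encode the same enzyme activity and gave different values. LYS21 measured 0.19, 0.52, 0.11 and 0.62 in set1htz1, a called rise of 0.36 ± 0.14 (SE, limma adjusted p = 0.044). That call was lost when any one of set1htz1 replicates 1, 2 or 4 was left out (adjusted p from 0.055 to 0.21), without the dye term and under quantile normalization. In set1htz1sir2 it measured 0.38, 0.50, -0.10 and 0.50, with a fitted 0.32 and a limma adjusted p of 0.068, and passed with each array centred on its median (adjusted p = 0.045), with a dye term for each group (0.014), with only the arrays compared (0.015) and without replicate 3 of that mutant (0.47, adjusted p = 0.023). LYS20 lay between -0.14 and 0.11 in set1htz1 and between -0.09 and 0.08 in set1htz1sir2, and its fitted values of -0.04 and -0.01 had intervals from -0.28 to 0.20 and from -0.25 to 0.24. Neither paralog was called in set1 or H3K4A. Whether the spots of these paralogs also take up each other's cDNA was not tested.

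The genes of the middle of the pathway did not rise with LYS2 in set1htz1. LYS4 measured -0.10, -0.04, 0.21 and -0.27, and its interval ran from -0.27 to 0.17, with no call. LYS12 measured 0.14, 0.21, 0.32 and 0.29, all above 0, and its fitted 0.24 had an interval from -0.05 to 0.53 and no call. With a dye term for each group LYS12 was called (0.24 ± 0.08, limma adjusted p = 0.016). LYS9, whose enzyme acts right after Lys2, measured -0.01, 0.01, 0.11 and -0.56, with a fitted -0.11 and an interval from -0.36 to 0.14. The regulator gene LYS14 measured -0.12, -0.14 and 0.00 on 3 arrays and had no value on array 1, the array on which LYS2 also had none.

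**Figure D2:**
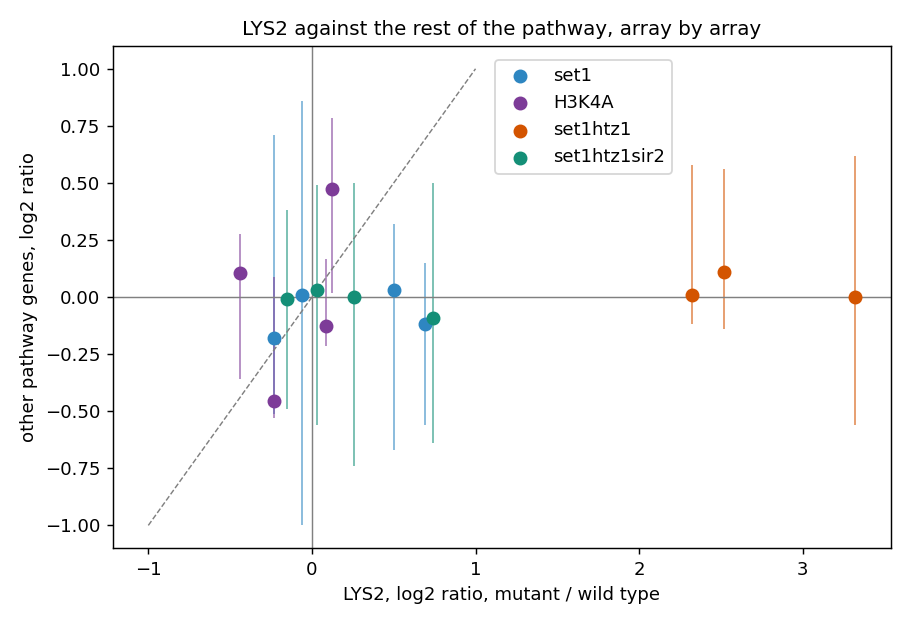
LYS2 log2 ratio (x axis) against the median of the other pathway genes on the same array (points, y axis), with vertical lines from their lowest to their highest value and a dashed line of equal values, coloured by mutant. The 3 set1htz1 arrays lie at LYS2 values of 2.32 to 3.32 with medians of 0.00 to 0.11.

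Array by array the same was seen. On the 3 set1htz1 arrays with a LYS2 value, the median of the other 7 genes was 0.01, 0.11 and 0.00, and on the array without one the other 6 had a median of 0.13. Over the 15 arrays with a LYS2 value, its Pearson correlation with the other members ran from -0.09 for LYS20 to 0.55 for LYS1. Over the 12 arrays outside set1htz1 it was 0.06 for LYS1 and ran from -0.54 for LYS12 to 0.50 for LYS14. These are descriptions: arrays of a group share a mutant, and arrays of an orientation share a dye effect.

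In the set1htz1sir2 triple mutant 2 of 8 genes were called, LYS1 higher and LYS9 lower, beside 50.4% of all genes called (24.1% higher and 26.3% lower). The saccharopine reductase gene LYS9 measured -0.49, -0.74, -0.49 and -0.64, below 0 on every array in both dye orientations. Its fall of -0.59 ± 0.12 (SE, limma adjusted p = 0.00042), or 0.66-fold, held without any one array of this group, with values from -0.65 to -0.55. LYS9 and LYS1 encode the enzymes of the last steps, and here they were called in opposite directions. In set1htz1, LYS9 lay at -0.56 on array 4 and between -0.01 and 0.11 on the other arrays. The difference of set1htz1sir2 from set1htz1 was -0.48, with a limma adjusted p of 0.069. It was called with a dye term for each group and with only the arrays compared (adjusted p = 0.015). LYS14 measured -0.42, -0.01, -0.56 and -0.09 in set1htz1sir2, with the lower pair in Cy5, and its fitted -0.27 missed the threshold (limma adjusted p = 0.069). It passed with a dye term for each group (adjusted p = 0.036) and with only the arrays compared. Its lowest limma adjusted p over the settings that keep all arrays was 0.0066.

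LYS4 was the called member in set1. Its ratios were -0.47, -0.40, -0.42 and -0.12, all below 0, for a fall of -0.35 ± 0.10 (SE, limma adjusted p = 0.023). That made 1 of 8 called, beside 18.8% of all genes (9.05% higher and 9.79% lower). The call was lost without set1 replicate 1, 2 or 3 (adjusted p from 0.060 to 0.12) and under quantile normalization (adjusted p = 0.051). LYS14 measured -0.51, 0.26, -1.0 and -0.14 in set1, with a fitted -0.35 and a limma adjusted p of 0.0505. It passed without set1 replicate 2 (-0.50, adjusted p = 0.010) and with a dye term for each group (adjusted p = 0.023). LYS9 measured -0.18, -0.67, 0.08 and -0.36, with a fitted -0.28 and no call. LYS4 was higher in set1htz1sir2 than in set1 by 0.46 ± 0.15 (limma adjusted p = 0.025), where 1 of 8 members was called beside 28.7% of all genes. In the triple mutant LYS4 measured -0.03, 0.24, 0.03 and 0.19. The call between these 2 mutants was lost without set1 replicate 1 or 3, without set1htz1sir2 replicate 2 or 4 and under quantile normalization (adjusted p from 0.057 to 0.077).

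**Figure D3:**
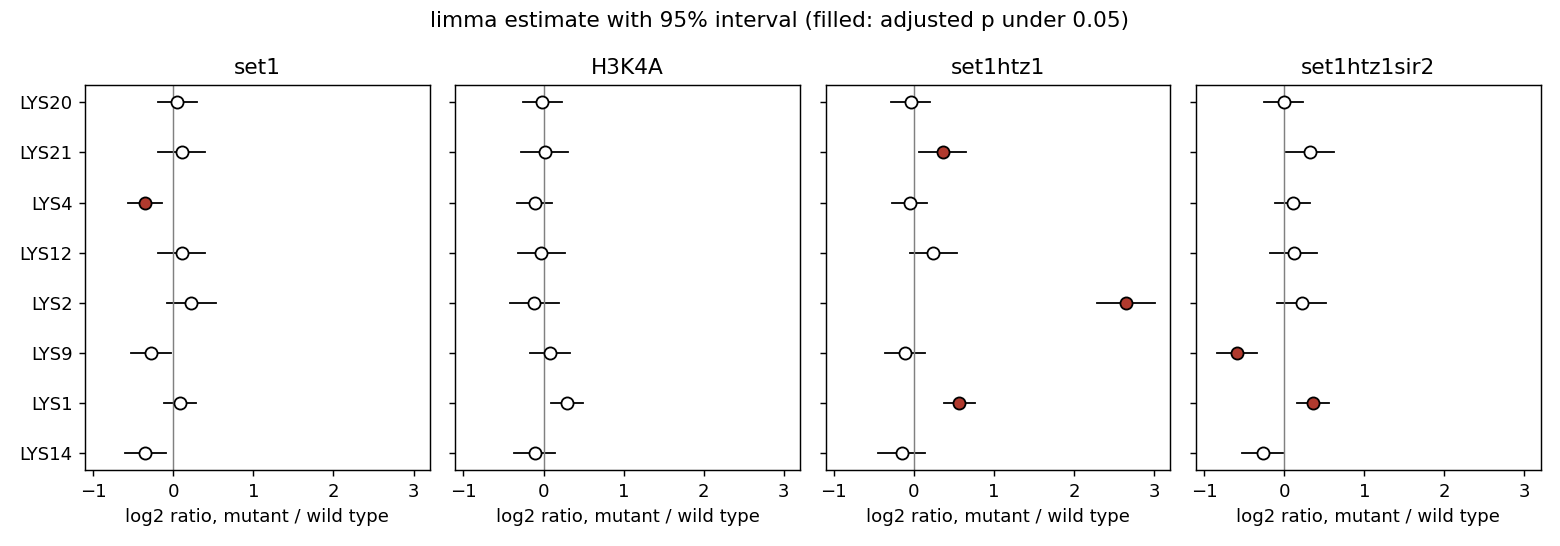
limma's log2 ratio of mutant over wild type with its 95% interval for each gene and mutant, filled where the adjusted p was under 0.05. LYS2 in set1htz1 (2.65) lies outside the range of every other point, which run from -0.59 to 0.57.

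No member was called in H3K4A by limma, beside 4.2% of all genes (3.59% higher and 0.602% lower). At an unadjusted p under 0.05 there was 1 of 8, LYS1, beside 825 of the 5147 genes tested. The intervals, whose width comes from a spread shared by all groups, ran for LYS2 from -0.42 to 0.19 and for LYS4 from -0.33 to 0.11. The values of the 8 genes differed between arrays. On replicate 1 all 8 lay above 0, with a median of 0.40 where the median of all genes on that array was 0.02. On replicate 2, with the dyes exchanged, 7 of 8 lay below 0, with a median of -0.43, and only LYS1 at 0.09 was above. Replicate 3 had 5 above and 3 below, with a median of 0.08, and replicate 4 had 3 above and 5 below, with a median of -0.12. LYS2 lay at -0.44 and 0.09 on these, opposite in sign to the medians. LYS9 ran from -0.45 to 0.78 and LYS21 from -0.53 to 0.60 over these arrays. The arginine genes had medians of 0.29, 0.09, 0.11 and 0.12 on the same arrays, and the histidine genes 0.10, -0.05, 0.05 and -0.08. Leucine, isoleucine and valine genes gave 0.31, -0.18, 0.07 and -0.14. The histidine and the leucine, isoleucine and valine medians had the sign of the lysine median on each of the 4 arrays, and the arginine medians were above 0 throughout. Replicate and dye orientation cannot be told apart on single arrays.

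Between mutants, 2 of 8 members differed between set1htz1 and set1 (LYS2 and LYS1, both higher in set1htz1), beside 19.3% of all genes. From set1htz1 to set1htz1sir2 LYS2 alone was called among the 8, beside 12.7% of all genes. Between H3K4A and set1 limma called 0 of 8, beside 7.5% of all genes. LYS9, 0.36 higher in H3K4A, was the 1 member with an unadjusted p under 0.05, beside 1152 of the 5147 genes tested. The RNA input of these groups differs by the deposited description, and its part was not tested.

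Dye orientation separated the values of several members. The dye term that all groups share was called for LYS12, LYS9 and LYS14, 3 of 8, beside 19.6% of all genes. For LYS12 it was 0.57 ± 0.14 (limma adjusted p = 0.0095), for LYS9 0.44 ± 0.12 and for LYS14 -0.39 ± 0.12. In set1, LYS12 measured 0.71 and 0.86 with the mutant in Cy5 and -0.58 and -0.56 with it in Cy3, a gap of 1.36 between orientations around a mean of 0.11. LYS2 had a shared dye term of -0.43 ± 0.15, short of a call (adjusted p = 0.054), and a gap of -0.74 in set1. In set1htz1 the one Cy5 array with a LYS2 value (2.52) lay between the Cy3 arrays (2.32 and 3.32). Each group holds both orientations, so that a constant dye effect cancels in a group mean of 4 arrays but widens its spread.

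**Figure D4:**
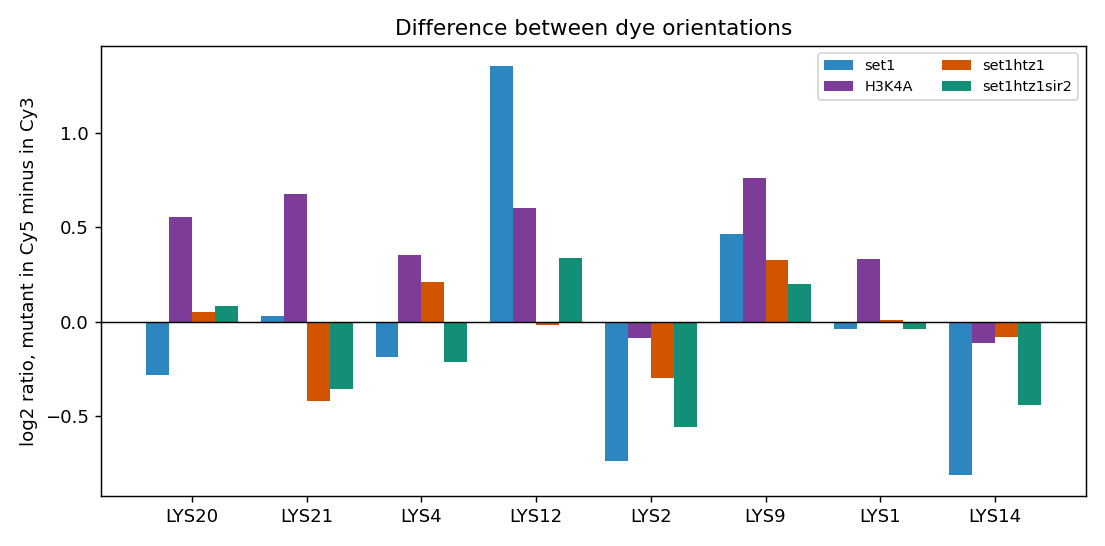
Mean log2 ratio of the arrays with the mutant in Cy5 minus that of the arrays with the mutant in Cy3, for each gene and mutant (bars from 0; 2 arrays per orientation, 1 in Cy5 for LYS2 and LYS14 in set1htz1). LYS12 in set1 shows the largest gap, 1.36.

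Genes that serve the pathway from outside were read from a list of 10, of which 8 were tested. Of those 8, set1 had 1 higher and 1 lower, set1htz1 2 higher and 1 lower, set1htz1sir2 2 higher and 2 lower, and H3K4A none. Over all genes 18.8%, 47.5%, 50.4% and 4.2% were called in these mutants in that order, so the counts of the list are near the background. In H3K4A, 3 of the 8 had an unadjusted p under 0.05, beside 825 of the 5147 genes tested. ODC1, a mitochondrial carrier of oxodicarboxylates such as 2-oxoadipate and 2-oxoglutarate, measured 0.64 to 1.13 in set1, 0.98 to 1.32 in set1htz1 and 0.76 to 1.15 in set1htz1sir2. It rose in all 3 of these, by 0.85 ± 0.10, 1.14 ± 0.10 and 0.94 ± 0.10 (SE, limma adjusted p of 2.2e-05 or less). In H3K4A its fitted 0.26 was not called. Its paralog ODC2 rose in set1htz1sir2 (0.78 ± 0.11, limma adjusted p = 1.3e-05) and lay at 0.15 in set1htz1 without a call. The lysine permease gene LYP1 fell in set1 (-0.54 ± 0.12, adjusted p = 0.0034) and in set1htz1sir2 (-0.55 ± 0.12, adjusted p = 0.00075). In set1htz1 it lay at -0.23, with no call. The basic amino acid permease gene ALP1 rose in set1htz1 (0.85 ± 0.12, limma adjusted p = 1.2e-05) and was not called in the other 3 mutants.

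MKS1, also named LYS80, encodes a negative regulator known from lysine and retrograde regulation. It lay between -0.74 and -0.29 in set1htz1 and between -0.64 and -0.36 in set1htz1sir2, below 0 on all 8 arrays. Both falls were called (-0.54 ± 0.11 and -0.46 ± 0.11, limma adjusted p = 0.00046 and 0.0015), while set1 gave -0.02 and H3K4A -0.07. LYS5, whose product attaches the prosthetic group that Lys2 needs, had fitted values between -0.0025 and 0.11 in the 4 mutants and no call. CAN1 and YPQ1, transporters of basic amino acids, were called in none of the mutants. GCN4, the activator of general amino acid control, had no value in H3K4A and ARO8, an aminotransferase gene of the alpha-aminoadipate step, none in set1, so neither was tested. GCN4 measured 1.01, 0.38, 1.28 and 0.15 in set1htz1 with the higher pair in Cy5, and ARO8 0.87, 0.45, 0.10 and 1.15. In set1htz1sir2, where LYS2 was not called, the means of GCN4 and ARO8 were 0.36 and 0.47. GCN4 had a mean of 0.14 in set1, and ARO8 had a mean of 0.22 in H3K4A.

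**Figure D5:**
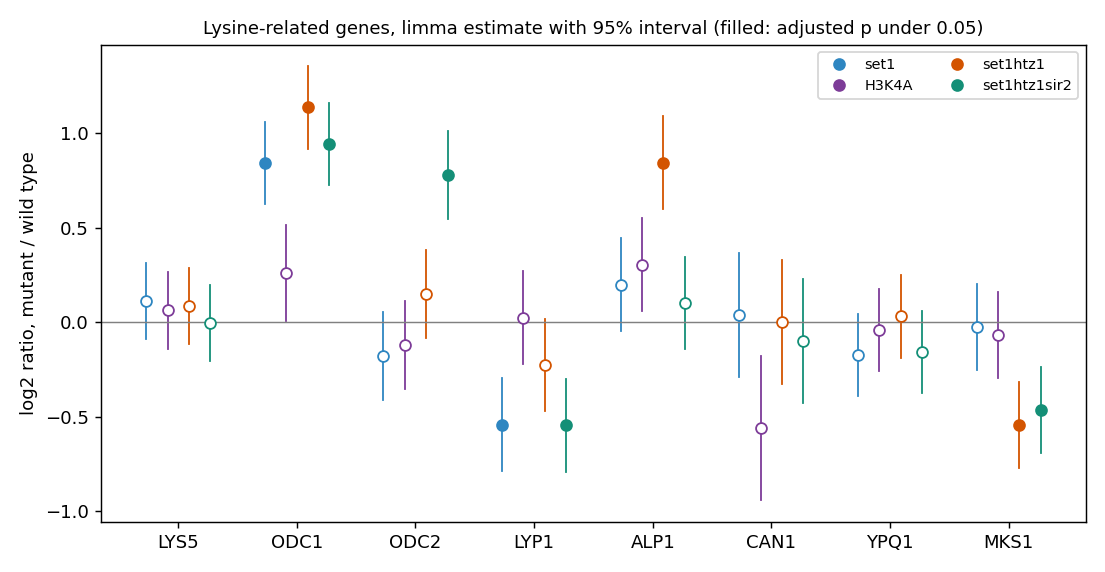
limma's log2 ratio with its 95% interval of the 8 tested lysine-related genes in the 4 mutants, filled where the adjusted p was under 0.05. ODC1 is called in set1, set1htz1 and set1htz1sir2 (0.85, 1.14 and 0.94) and MKS1 in set1htz1 and set1htz1sir2.

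Other amino acid pathways gave other counts on the same arrays. In set1, 6 of 8 tested arginine genes and 5 of 7 histidine genes rose, with medians of 0.68 and 0.41, beside 9.05% of all genes. No lysine gene rose there and the median of the 8 was 0.07, and of 9 leucine, isoleucine and valine genes 1 rose and 1 fell, with a median of -0.04. In set1htz1, 5 of 8 arginine genes rose and 1 fell, and 4 of 9 leucine, isoleucine and valine genes rose and 1 fell. There 2 of 7 histidine genes rose, as did 2 of the 7 lysine genes besides LYS2, beside 21.2% of all genes higher and 26.3% lower. The medians of these lists were 0.42, 0.29, 0.07 and -0.04. In set1htz1sir2, 6 of 9 leucine, isoleucine and valine genes rose and 1 fell, with a median of 0.66, beside 24.1% of all genes higher and 26.3% lower. In the same mutant 3 of 8 arginine genes rose, 3 of 7 histidine genes rose and 1 fell, and 1 lysine gene rose and 1 fell, with medians of 0.16, 0.18 and 0.11. The histidine list holds HIS3 and the leucine list LEU2, which like LYS2 serve as strain markers. No test compared these lists, and all rest on the same arrays.

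LYS2 was also set beside other genes often used as markers. MET17 was listed at the lowest ratio those groups can hold, 0.01, or at the next step above it on every array of set1htz1 and set1htz1sir2, which makes its fitted value a reading at the edge of the scale. It was called lower in both mutants, while LYS2 was called in set1htz1 and not in set1htz1sir2. HIS3 rose in set1, set1htz1 and set1htz1sir2 (0.92, 1.25 and 1.61) and lay at -0.02 in H3K4A. TRP1 rose by 2.15 in H3K4A and by 0.30 in set1htz1sir2 and was at 0.03 in set1htz1. ADE2 fell in set1htz1 (-0.44) and set1htz1sir2 (-0.89). URA3 had values in H3K4A alone (mean -1.59, n = 3) and LEU2 in H3K4A and set1htz1. Of the 6 ORFs next to LYS2 by name, 3 were tested. RAD16, a repair gene, lay at -0.01 in set1htz1 with no call, YBR116C at 0.22 with no call, and the transketolase gene TKL2 at 0.57 (limma adjusted p = 0.00018). The high ratio of LYS2 in set1htz1 was thus not shared at its size by these neighbours. TKL2 nevertheless also had its highest mean in set1htz1, with means of 0.07 in set1, 0.47 in H3K4A and -0.08 in set1htz1sir2. Its values in set1htz1 (0.34 to 0.70) and H3K4A (0.12 to 0.69) overlapped. In H3K4A, where LYS2 was not called, 2 of the 3 neighbours were called higher, beside 3.59% of all genes. YBR116C had a mean of 0.78 there. Of the 3 neighbours, 1 was called higher in set1htz1 than in set1, beside 19.3% of all genes called. From set1htz1 to set1htz1sir2, 1 was called lower, beside 12.7% of all genes called. Whether a difference in LYS2 marker genotype between set1htz1 and its wild type plays a part was not tested.

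The genes whose pattern was most like LYS2 over the 15 arrays, among 3659 others with a value on all arrays, were SNZ1 (Pearson r = 0.92), a vitamin B6 synthesis gene, AQY3 (0.90), PHM7 (0.86), LDS1 (0.83) and HAL1 (0.82). Over the 12 arrays outside set1htz1 these correlations were 0.52, 0.74, 0.52, 0.09 and 0.37. The 5 genes were picked for their high values over the 15 arrays, so the lower values cannot tell where the likeness rests. For the mean of the other 7 members the most similar genes were DAK1 (0.83), YMR253C (0.78), SKG1 (0.77), SFK1 (0.76) and SAC1 (0.76). No gene was in both sets of 5.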

How the data were processed

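Per the deposited description, the authors quantified spots of the 2-colour arrays with GenePix 3.0, dropped weak spots and those with a regression R2 below 0.75, and scaled the mutant-to-wild-type ratios to the total signal of each sample. The deposited values are log2 ratios. For H3K4A, base and direction were checked on all distinct values of an array, 145 to 215 of them, with a step size fitted to each array. With base 2, 100% fell on whole ratio steps, on arrays 2 and 4 only with the sign turned back. For set1htz1 and set1htz1sir2 the base was checked on distinct low values alone, only 1 to 6 per array, and 100% fell on whole steps with base 2. The set1 arrays hold no values low enough for this check. Scanner intensities and probe sequences were not used here, and no source used here names the genome build. A RefSeq gene table served for gene names, and the neighbours of LYS2 were taken by the order of systematic ORF names.

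From 6282 entries, of which 296 carry the prefix z, entries of an ORF were averaged. All 16 arrays entered one limma fit (version 3.58.1, R 4.3.3) with 4 group means and 1 shared dye term, over genes with a value on at least 3 arrays of every group, as deposited, with empirical Bayes moderation. The fit was run on simulated data with 1 dye effect common to all groups and independent noise, as the model assumes. That run cannot show how the fit behaves where dye effects differ between groups. The number of arrays limits the precision.

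Text genes are the 8 members, fixed lists of lysine-related, marker and mutated genes, the neighbours of LYS2, 3 comparison pathways and the 5 most similar genes by pattern. One further lysine-related gene is not reported here. Members and lists were chosen with earlier results of these data known. Alternatives were median centring, quantile normalization, other dye terms, a replicate block, a looser filter, fewer arrays, entries without z, robust moderation and leaving out each array.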

Additional observations from a re-analysis of the deposited data

Results flagged for a closer look

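Differences between mutants that passed limma's test are listed here once more as values. LYS2 differed by 2.42 between set1htz1 and set1 and by -2.43 between set1htz1sir2 and set1htz1. LYS1 differed by 0.48 between set1htz1 and set1, and LYS4 by 0.46 between set1htz1sir2 and set1. In the groups of 4 values, 30 in all, no single array stood far enough from the others to pass Dixon's criterion at the 95% level.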

How the results depend on the processing

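The rise of LYS2 in set1htz1 and its differences from set1 and set1htz1sir2 passed under all alternatives. Over the settings that keep all arrays the fitted rise ran from 2.22 to 2.72, with a limma adjusted p of at most 0.0014. With 1 set1htz1 array left out the rise ran from 2.42 to 2.92. LYS1 in set1htz1 and set1htz1sir2 and LYS9 in set1htz1sir2 also passed throughout. No called member changed sign. Of 64 member values, the settings that keep all arrays ended a call 5 times and added one 13 times.

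Counts of called members moved as follows. In set1 the count of 1 became 0 under quantile normalization and 2 with a dye term for each group, without z entries or with robust moderation, and 0 to 1 with an array left out. In H3K4A the count of 0 became 1 (LYS1) under quantile normalization. In set1htz1 the count of 3 ran from 2 to 4, and from 2 to 3 with an array left out. In set1htz1sir2 the count of 2 became 3 with each array centred on its median, which added LYS21. It became 4 with a dye term for each group or with only the arrays compared, which added LYS21 and LYS14, and 2 to 3 with an array left out. For set1htz1 against set1, 2 became 1 under quantile normalization, which ended the LYS1 call (adjusted p = 0.055). For set1htz1sir2 against set1htz1, 1 became 2 with a dye term for each group or with only the arrays compared. For set1htz1sir2 against set1, 1 became 0 under quantile normalization, and 0 to 1 with an array left out. The cause was not tested.

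Counts over all genes moved too. In H3K4A 216 became 786 under quantile normalization (58.3% of them higher, against 85.7%), 136 without a dye term, 23 (100% higher) with only its own arrays and 129 without replicate 4; in set1, 970 became 595 without replicate 4. Between set1htz1 and set1, 995 became 589 under quantile normalization and 655 without set1htz1 replicate 3. For set1htz1sir2 against set1htz1, 652 became 243 under quantile normalization (44.4% higher, against 57.4%), 408 without a dye term, 1278 with only the arrays compared, and as few as 346 with an array left out. For H3K4A against set1, 386 became 212, 96 and 246 without a dye term, with only the arrays compared and without H3K4A replicate 4. For set1htz1sir2 against set1, 1479 became 830 under quantile normalization.

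A looser filter changed nothing, since 5147 genes have a value on at least 1 array of every group and the same number on at least 3. Deviations of same-numbered arrays correlated from -0.01 to 0.61, and from -0.32 to 0.22 within a dye. Arrays of different numbers were not compared in this way, and an orientation holds only 2 arrays a group. Whether array numbers pair the samples therefore cannot be told from these values. With the array number as a replicate block the counts of called members were the same as without it, namely 1 for set1, 0 for H3K4A, 3 for set1htz1 and 2 for the triple mutant. A spot's signal over background is not known here, and 3 or 4 arrays a group leave intervals of about 0.2 to 0.4 on each side of a member's value.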
